A study of Mus musculus with 16 samples.

Results

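The promoters of Arntl, Clock and Npas2, the 3 activator genes at the centre of the mammalian circadian clock, were followed through Promoter Capture Hi-C (P-CHi-C) lists of mouse liver. P-CHi-C crosslinks chromatin, cuts it with HindIII, ligates ends that lie close together and captures the ligation products that hold a promoter fragment, called a bait. Each promoter was represented by the bait fragment that holds its gene start in build mm9: chr7:120349173-120358837 for Arntl, chr5:76729825-76739603 for Clock and chr1:39249557-39251208 for Npas2. All pairs with an end on 1 of these fragments were taken, which gave 19 of the 247177 distinct pairs and 3 of the 18165 baits: 3 pairs for Arntl, 1 for Clock and 15 for Npas2. The livers came from wild-type C57BL/6 males, an inbred laboratory strain. From an age of 8 weeks the males were kept for 2 weeks with free access to food under a cycle of 12 h light and 12 h dark. Livers were taken at zeitgeber time (ZT) 0, when the lights went on, ZT6, ZT12, when the lights went off, and ZT18. For every timepoint 3 pools were made from 2 livers each, and pool A ran on 2 lanes, giving 16 samples. Contacts were called after the pools had been merged, so there was 1 list a timepoint, no value has a replicate error, and no difference between timepoints could be tested. Between 146262 pairs (ZT0) and 154775 pairs (ZT6) were listed, each with a CHiCAGO score of at least 5. This score sets the reads of a pair against those expected from distance and technical noise. A pair under the minimum is missing from a list, so "not listed" is not a measurement of absence. Timepoints are those of the sample labels. A summary with the study gives the list sizes in a different order, in which the list named ZT6 here would be ZT18, ZT12 would be ZT6 and ZT18 would be ZT12, while ZT0 stays. The study's text on single promoters follows the order of the labels. The study states the depth of its libraries, which was not used here. They hold no RNA levels, so the tissue label was not checked against expressed markers. In bulk liver, a contact made in fewer cells and a weaker contact in each cell cannot be told apart.

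Arntl encodes BMAL1, a transcription factor of the basic helix-loop-helix and PAS family. BMAL1 pairs with CLOCK, or with the closely related NPAS2, and the dimer binds E-box elements to switch on the Per and Cry repressors, the Nr1d1 and Nr1d2 receptors (REV-ERBs) and output regulators such as Dbp. PER and CRY proteins then inhibit the dimer. The REV-ERBs repress, and the ROR receptors activate, Arntl and its partners through ROR/REV-ERB elements, which gives the activators their own daily rhythm. In liver, Arntl and Npas2 transcripts are known to peak around the change from night to day, whereas Clock cycles weakly.

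The 3 promoters are shown first, since they are the viewpoints from which all contacts below were read. RefSeq windows of 300 bases, from 250 bases before to 50 after a transcript start, were matched by symbol for 3 of 3 genes (6 windows: 2 for Arntl, 3 for Clock, 1 for Npas2; RefSeq table of build GRCm38.p6). Each window was found once in mm9 by exact match, on the bait fragment of its gene. One window a gene is printed 5′ to 3′ along the gene. Capitals mark TAGGTTA and TAGGTCA in the Arntl window and the first transcribed base in the windows of Clock and Npas2. The Arntl window lies at chr7:120350775-120351074 (+ strand), the Clock window at chr5:76733768-76734067 (- strand) and the Npas2 window at chr1:39250867-39251166 (+ strand).
Arntl promoter: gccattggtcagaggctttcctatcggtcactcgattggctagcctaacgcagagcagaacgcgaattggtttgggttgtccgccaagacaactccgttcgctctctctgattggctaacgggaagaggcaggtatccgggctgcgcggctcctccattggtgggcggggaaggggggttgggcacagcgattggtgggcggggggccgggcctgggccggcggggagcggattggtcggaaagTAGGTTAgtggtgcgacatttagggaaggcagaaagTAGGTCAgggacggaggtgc
Clock promoter: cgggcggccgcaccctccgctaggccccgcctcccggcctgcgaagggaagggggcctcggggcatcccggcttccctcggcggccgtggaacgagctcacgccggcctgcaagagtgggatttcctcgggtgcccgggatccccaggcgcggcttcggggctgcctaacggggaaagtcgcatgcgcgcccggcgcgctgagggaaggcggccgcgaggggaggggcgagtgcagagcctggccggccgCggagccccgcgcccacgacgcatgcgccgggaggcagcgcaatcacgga
Npas2 promoter: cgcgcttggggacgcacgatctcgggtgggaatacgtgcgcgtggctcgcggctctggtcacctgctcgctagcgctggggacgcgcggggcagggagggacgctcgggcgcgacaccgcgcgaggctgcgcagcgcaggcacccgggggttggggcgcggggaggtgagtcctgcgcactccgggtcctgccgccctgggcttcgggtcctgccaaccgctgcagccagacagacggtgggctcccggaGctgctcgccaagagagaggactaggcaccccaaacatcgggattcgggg

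The promoters differed in the clock elements they hold. Both strands were searched for the E-box CACGTG, the D-box TTATGTAA, bound by DBP and its relatives, the ROR/REV-ERB element TAGGTCA and the NR5A2 element CAAGGTCA, bound by the liver nuclear receptor NR5A2. The last pair share the letters AGGTCA but cannot match at the same place. Among all 32851 RefSeq windows, which include several windows of some genes, 7.15% held the E-box, 0.938% the D-box, 2.61% the ROR/REV-ERB element and 1.56% the NR5A2 element. The printed Arntl window held 1 ROR/REV-ERB element. It also held 1 TAGGTTA, a form with a single changed base that was searched for after this window had been read. The other Arntl window, chr7:120350729-120351028, held TAGGTTA and none of the 4 motifs. The Arntl window that holds both forms was the one chosen for printing. TAGGTTA was found in 1.44% of windows and both forms together in 16 windows, or 0.0487%. None of the 4 motifs was found in the 3 Clock windows or in the Npas2 window. A match is only a run of letters, and no match says nothing about which factors bind there.

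The Arntl promoter fragment (9665 bp; gene ENSMUSG00000055116, + strand, 120350979-120457636 on chromosome 7, 107 kb long) had contacts at 2 timepoints and at those alone: 3 at ZT0 and 2 at ZT18, with 0 at ZT6 and 0 at ZT12. Its first contact, chr7:120383215-120392197, 33.7 kb downstream, was listed at ZT0 with a score of 5.69 and at no other timepoint. Its second, the adjoining fragment chr7:120392198-120395029 at 39.6 kb, was listed at ZT0 with 6.12 and at ZT18 with 5.43. The contact farthest away, chr7:120403609-120405555 at 50.6 kb, had the highest scores of the 3, with 7.72 at ZT0 and 6.28 at ZT18. Both contacts seen at 2 timepoints thus scored higher at ZT0 than at ZT18, and all 5 scores lay between 5.43 and 7.72, near the minimum of 5. Over all pairs, the lists held 59.2% (ZT0), 62.6% (ZT6), 61.3% (ZT12) and 61.2% (ZT18), 2.64% were listed at ZT0 and ZT18 alone and 8.2% at ZT0 alone. Scores this low are often missing at other timepoints: of the 92779 pairs whose highest score lay in the range of the 3 Arntl contacts, 22.7% were listed at neither ZT6 nor ZT12. Of the 1290 baits with 3 contacts, 40 (3.1%) had some at ZT0 and at ZT18 and none at ZT6 and ZT12. Among all baits the share was 0.974%.

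All 3 Arntl contacts lay inside the Arntl gene, in introns, and carried no annotated exon and no gene start. None of the 3 fragments was listed with any other bait, and of the 30 fragments that lie wholly inside Arntl, 0 were listed with a bait other than that of Arntl. No share over all genes is given here for fragments inside a gene that other baits list. Among all fragments listed with a bait, 54.4% were listed with 1 bait only. For comparison, 40% of the pairs of baits with 1 protein-coding gene of at least 90 kb ended inside that gene, and 171 of 1735 such baits (9.86%) had all their pairs there. Of the 4 other baits within 400 kb, the nearest pair had contacts at every timepoint. Btbd10, 160 kb away, had 4, 7, 6 and 6 contacts at ZT0, ZT6, ZT12 and ZT18, and Pth, the parathyroid hormone gene at 179 kb, had 13, 12, 10 and 11. The other pair had few contacts, as Arntl did: Far1, 302 kb away, had 0, 0, 2 and 0, and 1700006P19Rik, at 356 kb, had 1, 1, 0 and 0.

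Of the 9 elements on the Arntl contacts, 4 are shown: the E-box, both NR5A2 elements, and the ROR/REV-ERB element that lies beside an NR5A2 element on the second contact. The other 3 ROR/REV-ERB elements and both D-boxes are counted but not printed. The matching letters are in capitals, with 25 bases on each side. The E-box of the first contact lies at chr7:120386110-120386165 (+ strand), the elements of the second at chr7:120394439-120394511 (printed from the - strand, CAAGGTCA before TAGGTCA) and the NR5A2 element of the last at chr7:120404530-120404587 (+ strand).
First contact, 33.7 kb, E-box: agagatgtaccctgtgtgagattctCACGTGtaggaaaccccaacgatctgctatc
Second contact, 39.6 kb, NR5A2 and ROR/REV-ERB elements: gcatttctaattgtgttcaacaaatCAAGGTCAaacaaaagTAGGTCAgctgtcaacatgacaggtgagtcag
Last contact, 50.6 kb, NR5A2 element: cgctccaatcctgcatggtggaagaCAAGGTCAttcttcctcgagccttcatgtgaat

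On the second contact 8 bases separated the NR5A2 element from the ROR/REV-ERB element, and both faced the same way. The 3 fragments together (13.8 kb) held 4 ROR/REV-ERB elements, on 2 of the 3 fragments, 0.291 a kb against 0.103 a kb over all fragments listed with a bait. They held 2 NR5A2 elements, also on 2 of the 3 (0.145 against 0.0734 a kb), 2 D-boxes, both on the first contact, and 1 E-box (0.0727 against 0.141 a kb). Of all such fragments, 27.2% held the ROR/REV-ERB element, 20.5% the NR5A2 element, 13.6% the D-box and 32.3% the E-box. With 3 fragments these are descriptions of where the letters lie.

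**Figure D1:**
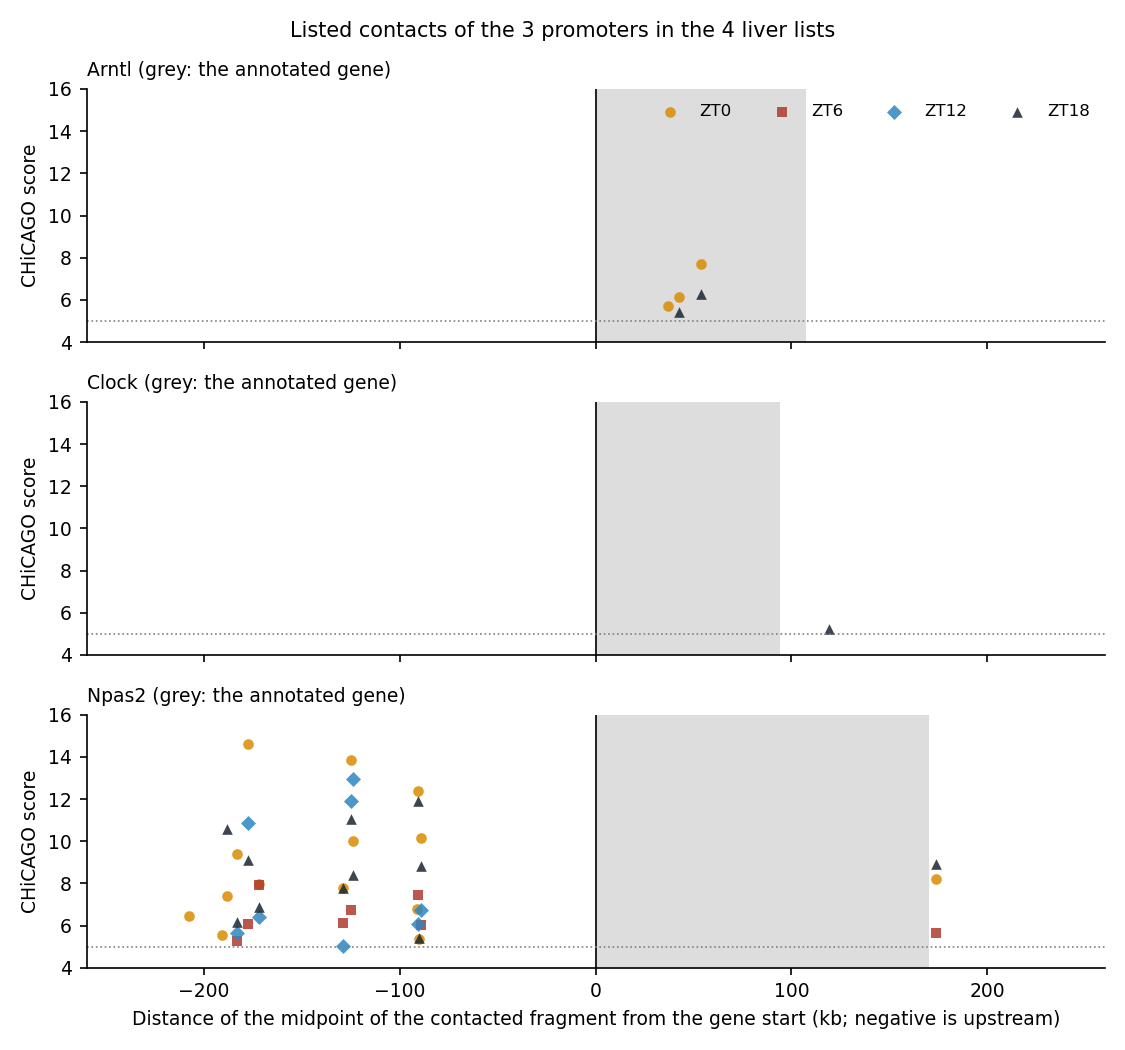
Contacts of the Arntl, Clock and Npas2 promoters. Each point is a fragment listed with the promoter at 1 timepoint, placed by the distance of its midpoint from the gene start (x, kb, along the gene) and its CHiCAGO score (y), with the gene in grey and the score minimum of 5 dotted. The 3 Arntl contacts lie inside the gene, the Clock contact lies beyond its gene end, and 13 of 15 Npas2 contacts lie upstream. The Npas2 contact at 707 kb is off the axis.

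The Clock promoter fragment (9779 bp; ENSMUSG00000029238, - strand, 76639992-76733817 on chromosome 5, 93.8 kb long) had a single contact in the 4 lists. It was not listed at ZT0, ZT6 or ZT12 and had a score of 5.21 at ZT18, close to the minimum. Of the 43244 pairs whose highest score was under 5.5, 87% were listed at 1 timepoint only, and 8.5% of all pairs were listed at ZT18 alone. The contacted fragment, chr5:76612467-76617322, lies 120 kb from the bait and 22.7 kb beyond the far end of Clock, and holds the start of Tmem165, which encodes a Golgi membrane protein. None of the 4 motifs was found on it.

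The Tmem165 fragment was listed with 3 other promoters of the region, each once. Pdcl2 (on a fragment shared with 4930432L08Rik) had a score of 5.51 with it at ZT18, Exoc1, an exocyst subunit, 5.55 at ZT6, and Aasdh 5.89 at ZT6. No promoter was listed with it at 2 timepoints. Some of the baits around Clock had few contacts as well. Of the 5 other baits within 400 kb, 3 had at most 2 contacts, as 16.8% of all baits did. Pdcl2 had 2, Exoc1 had 1 and the fragment of Gm10430 and C530008M17Rik had 1. Cep135, a centriole protein gene 283 kb away, had 10, and Kdr, the VEGF receptor gene at 365 kb on the other side, had 7. The median of all baits was 9. The Cep135 bait was also the only other bait listed with a fragment inside Clock, 1 of the 31 there, at ZT6. As for Arntl, no share over all genes is given for this count.

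The Npas2 promoter fragment (1652 bp; ENSMUSG00000026077, + strand, 39250576-39420079 on chromosome 1, 170 kb long) had 15 contacts over the 4 lists: 14 at ZT0, 12 at ZT18 and 8 each at ZT6 and ZT12. It thus had the most contacts at ZT0, as 14.6% of all baits did, and 15.7% of the 2612 baits with 12 to 18 contacts. Of the 15, 7 were listed at all 4 timepoints (46.7%, 95% Wilson interval 24.8 to 69.9%), 2 at 3 timepoints, 2 at 2 and 4 at 1 only (26.7%, 10.9 to 52.0%). These intervals cover counting error only, and adjoining fragments are not independent. Over all pairs 32.5% were listed at all 4 timepoints and 35.2% at 1 only, so each interval for Npas2 includes the share over all pairs. Fewer contacts stayed at a stricter score: at 7 or more, 0 of 10 Npas2 contacts were listed at all 4 timepoints, against 33.7% of all pairs. Of the baits with 12 to 18 contacts, 88.2% had fewer of them listed at all 4 than not, as Npas2 did.

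Of the 15 contacts, 13 lay upstream of Npas2, 0 inside it and 2 beyond its end, and 12 held no annotated gene. For baits with 1 protein-coding gene of at least 90 kb, 40% of pairs ended inside that gene. No share over all baits is given here for upstream ends or for ends without a gene. A distance of over 150 kb from the bait was found for 8 of the 15, against 53.3% of pairs within a chromosome. The fragments outside genes fell into 3 runs of neighbouring fragments. The far run (5 fragments over 24.2 kb, chr1:39058381-39082585, 191 to 172 kb upstream) had 5, 3, 3 and 4 listed fragments at ZT0, ZT6, ZT12 and ZT18. The middle run (3 fragments over 9.19 kb, chr1:39117607-39126798, 129 to 124 kb upstream) had 3, 2, 3 and 3. The near run (4 fragments over 3.28 kb, chr1:39158843-39162121, 91.2 to 89.1 kb upstream) had 4, 2, 2 and 3. Each run held its full set of fragments at ZT0 and its smallest number at ZT6, which the far and near runs shared with ZT12.

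In the far run, the strongest contact was the fragment 178 kb upstream, chr1:39071598-39074102, with a score of 14.63 (ZT0), 6.1 (ZT6), 10.86 (ZT12) and 9.1 (ZT18). The fragment at 183 kb had 9.39, 5.28, 5.66 and 6.16 in that order, and the one at 172 kb had 7.96, 7.92, 6.42 and 6.89. All 3 were listed at every timepoint with the highest score at ZT0, by a margin that was wide at 178 kb and 0.04 over ZT6 at 172 kb. The fragment at 188 kb was listed at ZT0 with 7.42 and at ZT18 with 10.57 and was not listed at ZT6 or ZT12. The fragment at 191 kb was listed at ZT0 alone, with 5.54.

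In the middle run, the fragment 125 kb upstream, chr1:39125062-39126418, scored 13.84 (ZT0), 6.74 (ZT6), 11.91 (ZT12) and 11.05 (ZT18). Its neighbour at 124 kb, chr1:39126419-39126798, scored 9.99 at ZT0, 12.95 at ZT12 and 8.38 at ZT18 and was not listed at ZT6. The fragment at 129 kb had 7.8, 6.14, 5.05 and 7.8 at the 4 timepoints. ZT6 was thus the low point of the pair at 125 and 124 kb, whereas the fragment at 129 kb was lowest at ZT12 and level between ZT0 and ZT18.

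In the near run, the fragment 90.5 kb upstream scored 12.38 (ZT0), 7.44 (ZT6), 6.08 (ZT12) and 11.9 (ZT18), and the one at 89.1 kb scored 10.14, 6.02, 6.72 and 8.81. Both were high at ZT0 and ZT18 and low at ZT6 and ZT12. The 293 bp fragment at 90.1 kb was listed at ZT0 with 5.39 and at ZT18 with 5.42, and the one at 91.2 kb at ZT0 alone with 6.77.

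The remaining 3 contacts of Npas2 lay on the bait fragments of other genes, 20% of its contacts, while 15.4% of all pairs joined 2 baits. Rpl31, a ribosomal protein gene whose fragment starts 1412 bp past the end of Npas2, 174 kb from the bait, was listed at ZT0 with 8.21, at ZT6 with 5.64 and at ZT18 with 8.92 and not at ZT12. Pdcl3, a phosducin-like chaperone gene 208 kb upstream, was listed at ZT0 alone with 6.45. Map4k4, a protein kinase gene 707 kb downstream, was listed at ZT18 alone with 5.05. None of these 3 promoters was listed with Npas2 at ZT12.

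**Figure D2:**
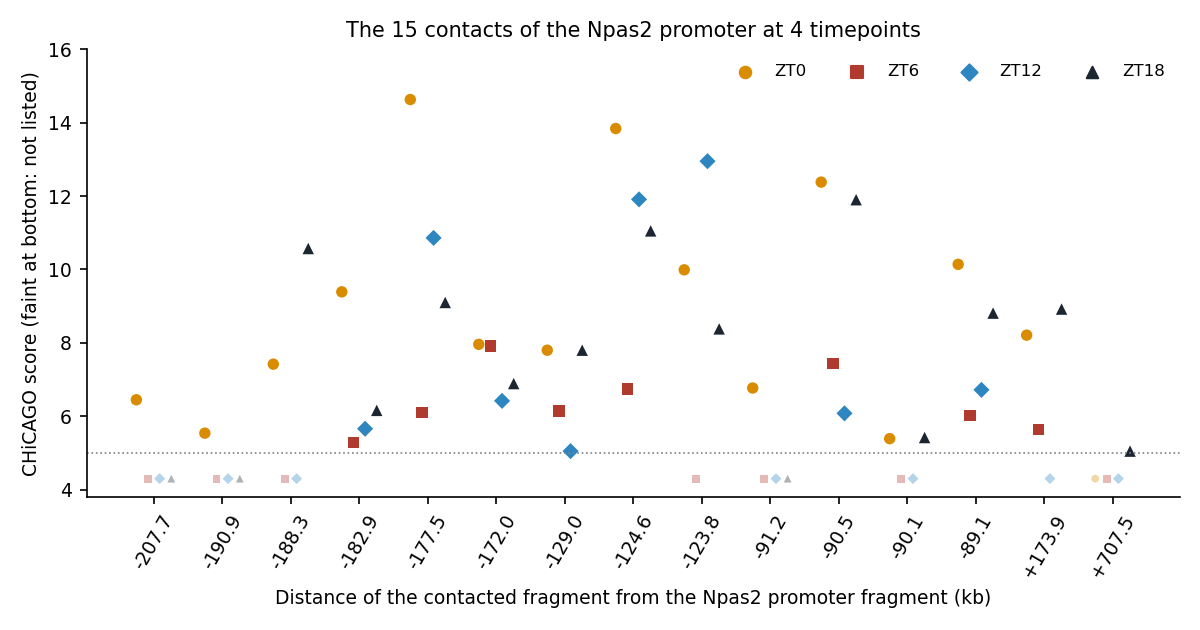
CHiCAGO scores (y) of the 15 fragments listed with the Npas2 promoter, ordered by their position relative to it (x, kb, negative upstream), at ZT0, ZT6, ZT12 and ZT18. Faint symbols at the bottom mark timepoints at which a fragment was not listed, and the dotted line is the score minimum of 5. ZT0 holds the highest symbol, alone or shared, in all 7 fragments listed at every timepoint.

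All 7 Npas2 contacts listed at every timepoint had their highest score at ZT0, with 1 tie with ZT18 at 129 kb. Among all 80235 pairs listed at every timepoint, 22.2% were highest at ZT0 and 25.7 to 26.2% at each other timepoint, shared places counted. The lowest score of the 7 was at ZT6 or ZT12 in 7 of 7, against 48.5% of all pairs. The median of the 7 was 10.14 (ZT0), 6.14 (ZT6), 6.42 (ZT12) and 8.81 (ZT18), whereas over all pairs it was 8.75, 8.95, 8.98 and 8.98. The difference in score between ZT0 and ZT6 had a median of 4.12 units (range 0.04 to 8.53) for Npas2 and -0.16 over all pairs. Between ZT0 and ZT12 the medians were 3.42 and -0.2, and between ZT0 and ZT18 1.33 and -0.23. These 3 comparisons share the ZT0 list.

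Few baits had all such pairs highest at ZT0. Of the 5648 baits with at least 5 pairs listed at every timepoint, 1 (0.0177%) did, and that bait was Npas2. Shared highest places were counted, and the Npas2 pair at 129 kb had 7.8 at both ZT0 and ZT18. With ZT0 required to be highest alone, Npas2 would not have met the condition. The equivalent for ZT6 was met by 2 baits (0.0354%), for ZT12 by 8 (0.142%) and for ZT18 by 10 (0.177%). With at least 3 such pairs the number for ZT0 was 22 of 7986 (0.275%), and with at least 7 it was 1 of 4264 (0.0235%). The comparison and its minimum of 5 pairs were chosen with the Npas2 scores known, so the place of Npas2 in it is not a test. The counts include baits with many more such pairs, which can meet the condition less easily, so the shares depend on the number of pairs. The 7 pairs also lie in 3 runs of neighbouring fragments and so are fewer than 7 separate observations. The neighbouring Rpl31 bait went in the same direction by a smaller margin, with 7 of 13 such pairs highest at ZT0 and median differences of 2.01 (ZT0 minus ZT6), 2.75 (ZT0 minus ZT12) and 0.47 (ZT0 minus ZT18). Pdcl3, with 1 of 4 pairs highest at ZT0, and Tbc1d8, with 2 of 16, had medians below 0 for all 3 differences.

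**Figure D3:**
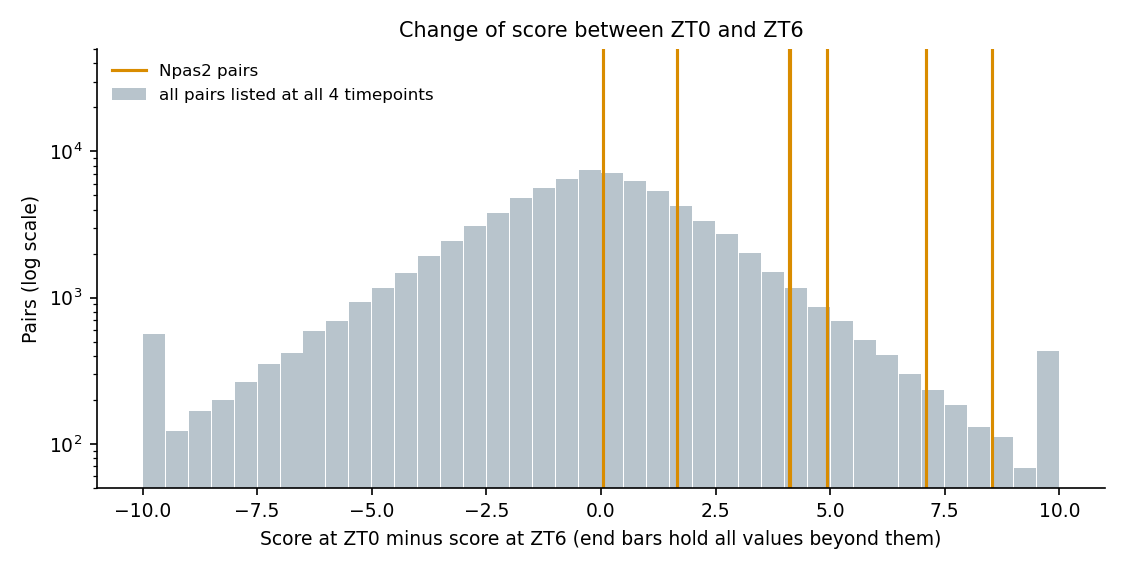
Score at ZT0 minus score at ZT6 (x, score units) for the 80235 pairs listed at all 4 timepoints (grey, number of pairs in bins of 0.5 units on a log axis, with the end bars holding all values beyond them). The orange lines are the 7 Npas2 pairs, which range from 0.04 to 8.53, while the median of all pairs is -0.16.

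Some Npas2 pairs with high scores were not listed at every timepoint. Of the 15 contacts, 6 reached a score of 10 at some timepoint, and 4 of these 6 were listed at all 4 timepoints, against 89.7% of the 53170 pairs that reached 10. The other 2, at 188 and 124 kb upstream, were not listed at ZT6, as 3.03% of such pairs were not. The contact at 188 kb was listed at ZT0 and ZT18 alone, a pattern of 0.286% of pairs that reached 10. A score of at least 10 was reached by 4 Npas2 contacts at ZT0, by 3 at ZT12, by 3 at ZT18 and by 0 at ZT6.

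The 3 runs differed in the other baits listed with them. None of the 7 fragments of the middle and near runs was listed with any other bait, whereas all 5 fragments of the far run were also listed with Rpl31, which lies on the opposite side of Npas2. A single bait is common: 54.4% of all fragments listed with a bait had 1 bait only, and 7 of the 15 Npas2 contacts did. The fragment at 191 kb scored 23.99 with Rpl31 (ZT0), 17.68 (ZT6), 14.6 (ZT12) and 12.81 (ZT18), and the fragment at 188 kb 18.16, 11.36, 10.22 and 11.59. With Rpl31 both were thus listed at every timepoint and highest at ZT0. With Npas2 the first was listed at ZT0 alone and the second at ZT0 and ZT18. The fragment at 183 kb had 13.85 with Rpl31 at ZT0, 7.45 at ZT6 and 6.21 at ZT12, and the one at 172 kb had 7.71 at ZT0 and 6.57 at ZT18, so 4 of the 5 had their highest score with Rpl31 at ZT0. The strongest Npas2 contact of this run, at 178 kb, was the exception, with 6.83, 8.27, 5.23 and 6.62 with Rpl31 at ZT0, ZT6, ZT12 and ZT18. Tbc1d8 and U3 were listed with the fragments at 191 and 188 kb too.

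Some fragments inside the Npas2 gene were listed with a neighbouring promoter. Of the 46 fragments wholly inside Npas2, 0 were listed with the Npas2 bait and 14 with the Pdcl3 bait, 208 kb upstream, which was the only other bait listed with any of them. No share over the genes of all baits is given here, so whether 14 of 46 is unusual was not tested. Pdcl3 had 8, 9, 3 and 5 of these contacts at ZT0, ZT6, ZT12 and ZT18, with 2 at all 4. Over all its contacts Pdcl3 had 20, 14, 9 and 10, so it too had the most at ZT0. Rpl31 (21, 18, 25 and 22) and Tbc1d8 (29, 25, 31 and 27) had the most at ZT12. Pdcl3 and Rpl31 were listed with each other at every timepoint, with 14.83, 18.3, 17.87 and 20.07, lowest at ZT0.

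All 7 E-boxes on the upstream contacts of Npas2 are printed because the E-box is the element that the dimers of these activators bind. Capitals mark CACGTG, with 25 bases on each side, or the whole of the 293 bp fragment in the last line. They are given on the + strand, at chr1:39061028-39061083, chr1:39062964-39063019, chr1:39072310-39072365, chr1:39080774-39080829, chr1:39118678-39118733, chr1:39159210-39159265 and chr1:39160092-39160384.
Npas2 contact at 188 kb, first E-box: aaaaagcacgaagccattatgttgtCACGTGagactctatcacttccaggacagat
Npas2 contact at 188 kb, second E-box: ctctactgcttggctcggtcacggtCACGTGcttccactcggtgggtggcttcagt
Npas2 contact at 178 kb: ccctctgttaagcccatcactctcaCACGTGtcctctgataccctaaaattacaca
Npas2 contact at 172 kb: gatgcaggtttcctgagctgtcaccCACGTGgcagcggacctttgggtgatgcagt
Npas2 contact at 129 kb: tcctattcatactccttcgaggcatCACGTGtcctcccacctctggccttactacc
Npas2 contact at 91.2 kb: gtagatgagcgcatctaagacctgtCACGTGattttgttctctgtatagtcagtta
Npas2 contact at 90.1 kb, whole fragment: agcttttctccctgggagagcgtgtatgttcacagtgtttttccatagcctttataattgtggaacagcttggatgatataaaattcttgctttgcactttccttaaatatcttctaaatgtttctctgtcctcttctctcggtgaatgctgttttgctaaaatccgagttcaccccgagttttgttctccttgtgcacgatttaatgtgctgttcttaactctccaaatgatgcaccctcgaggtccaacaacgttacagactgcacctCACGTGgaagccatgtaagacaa

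An E-box was found on 7 of the 15 Npas2 contacts, 8 matches in 49.8 kb or 0.161 a kb, close to the 0.141 a kb of all fragments listed with a bait. The 7 included the strongest contact at 178 kb and the fragment at 188 kb with its pair of E-boxes, while the fragments at 125, 124, 90.5 and 89.1 kb, which all reached a score of 9.99 or more at ZT0, held none. The ROR/REV-ERB element was on 4 of 15 (7 matches, 0.141 against 0.103 a kb), the D-box on 2 (0.0402 against 0.0443 a kb) and the NR5A2 element on 1 (0.0201 against 0.0734 a kb). E-boxes were thus found both on contacts listed at all 4 timepoints and on those listed at ZT0 alone.

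Set against all 18165 baits, which had a median of 9 contacts, the activators spread from the lowest number to the upper part of the range. Clock, with 1 contact, had the lowest number a listed bait can have, shared with 8.87% of baits. Fewer contacts than Arntl were found for 16.8% of baits and fewer than Npas2 for 64.5%. Baits of like length were spread as well: 25.7% of the 1646 baits of 9 to 11 kb, the size of the Arntl and Clock fragments, had 3 contacts or fewer, and the 1373 baits of 1 to 2 kb, the size of the Npas2 fragment, had a median of 9 contacts.

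**Figure D4:**
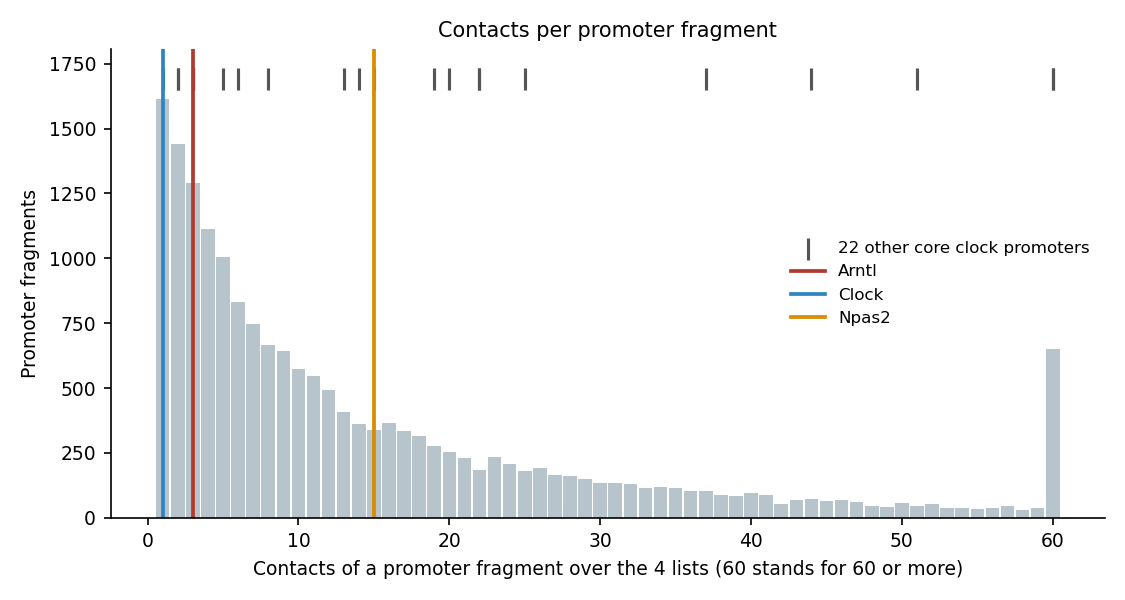
Number of promoter fragments (y) by their number of contacts over the 4 lists (x, with 60 standing for 60 or more). Lines mark Clock at 1, Arntl at 3 and Npas2 at 15 contacts, and ticks at the top mark the 22 other core clock promoters with a bait, of which some share a tick.

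Promoters with the same numbers of contacts at the 4 timepoints were found for Arntl and Clock but not for Npas2. Of 15106 other baits that hold the start of a protein-coding gene, 3 had the 3, 0, 0 and 2 of Arntl (Pax3, Rhpn1 and Vmn1r229), and 175 had the single ZT18 contact of Clock. For Npas2 the closest were 2500003M10Rik (14, 9, 8 and 11) and the fragment of Hnrnpul2 and Ttc9c (14, 7, 8 and 11), each with a summed absolute difference of 2 contacts, then the fragment of Bckdk and Vkorc1 with 3.

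Of 24 other core clock genes, 22 had a bait at their start, with a median of 14.5 contacts and at most 149 (Bhlhe40, a repressor of E-box activation). Npas2 lay near the middle of this list, with 11 promoters below it and Nr1d1 level at 15. At most 3 contacts, as for Arntl and Clock, were found for 6 of the 22. Over all baits, 16.8% had fewer than 3 contacts and another 7.10% had 3. The share listed at all 4 timepoints was lower than that of Npas2 in 18 of the 22, with a median of 25.8%. Arntl2, the paralog of Arntl, was the 1 other promoter on the list with contacts at ZT0 and ZT18 alone, with 2 and 3. Its 5 contacts were each listed at 1 timepoint, with scores from 5.08 to 6.67, 153 kb from its bait on one side and 200 to 234 kb on the other, so unlike those of Arntl none was listed at both timepoints.

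Contacts were most numerous at ZT0 for a pair of the activators and least numerous at ZT0 for many other genes of the list. The most contacts at ZT0 were found for Npas2 and Arntl and, among the 22 others, for 1, Bhlhe41 (14, 4, 8 and 3 in the order ZT0, ZT6, ZT12 and ZT18), a repressor of E-box activation like its relative Bhlhe40. The fewest contacts at ZT0 were found for 10 of the 22, against 18.4% of all baits. Among them were Per1 (5, 7, 19 and 12), Per2 (9, 10, 19 and 13), Cry2 (5, 12, 7 and 7), Nr1d1 (6, 10, 9 and 8), Dbp (11, 25, 24 and 19), Tef (9, 18, 17 and 17), Hlf (68, 85, 95 and 79), Csnk1e (4, 6, 9 and 5) and Gsk3b (24, 31, 32 and 27). Per1, Per2, Cry2 and Nr1d1 encode repressors of the loop, Dbp, Tef and Hlf D-box activators, and Csnk1e and Gsk3b kinases that act on clock proteins. The difference between the lists of genes was not tested.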

How the data were processed

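Livers of 4 timepoints were assayed by P-CHi-C in 16 samples. Per the labels and the study's methods, the authors mapped reads to mm9, filtered them with HiCUP, pooled the reads by timepoint and called contacts with CHiCAGO (versions not given in the sources used here). The deposited value is the CHiCAGO score, a transformed weighted p-value for each pair and timepoint, with a lowest listed score of 5. Differences in depth between timepoints would change which pairs pass this minimum, and the depth that the study states was not used here. Timepoints follow the sample labels, as does the study's text on single promoters. The study's own summary gives the sizes of all lists but that of ZT0 under different timepoints, and that order was run as an alternative.

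Pairs were treated as unordered. The member fragment stood first in every one of its listings, 5 for Arntl, 1 for Clock and 42 for Npas2. Of the 129887 listed fragments, 129886 were identical to HindIII fragments cut from the mm9 reference. Distances run between fragment midpoints, and genes, exons and starts came from GENCODE vM1 on mm9. Runs joined fragments at most 1000 bp apart. Shares have 95% Wilson intervals (scipy 1.17.1). Analyses used python 3.11.15, pandas 2.3.3, numpy 2.4.6 and matplotlib 3.10.9, and the counting steps were tested on simulated data. The members, gene lists, motifs and comparisons were chosen with earlier results of these data known. Genes named are the members, genes with an exon or start on their contacts, promoters listed with the same fragments, neighbouring baits, a list of 24 other core clock genes (of which Rora and Rorb had no bait and Ciart is Gm129 in the annotation, and some are not reported here by name) and the 3 promoters closest in numbers of contacts. The alternatives tried were score minimums of 7 and 10, lists cut to an equal number of top-scoring pairs, the other order of the lists, baits within 5 kb, pairs with the member first or second, a tolerance of 10 kb, gaps between fragments, protein-coding baits or genes, contacts within 500 kb and longer promoter windows. RNA levels and read counts were not analysed here.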

Additional observations from a re-analysis of the deposited data

How the results depend on the processing

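No paired analysis was possible because each timepoint has 1 list, called on merged pools, and no single replicate could be left out. The numbers of contacts at each timepoint stayed within 1.5 times in lists cut to an equal number of top-scoring pairs, with baits within 5 kb included and with the member fragment listed first. With the member listed second every number was 0, since the members were never listed second. In the other order of the lists, Arntl had 3 contacts at ZT0, 2 at ZT12 and 0 at ZT6 and ZT18, and the Clock contact moved to ZT12 (1, with 0 at ZT18), while the ZT0 values stayed. Npas2 then had 14, 8, 12 and 8 at ZT0, ZT6, ZT12 and ZT18, so its lows would fall at ZT6 and ZT18. The study's text on single promoters goes with the labels and not with this order. A stricter score lowered the numbers. From a score of 7 up, Arntl had 1 contact at ZT0 and 0 at ZT18, Clock 0 at ZT18, and Npas2 10, 2, 3 and 8 at ZT0, ZT6, ZT12 and ZT18. From a score of 10 up, Arntl and Clock had 0, and Npas2 had 4, 0, 3 and 3.

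The share of Npas2 contacts listed at all 4 timepoints, 46.7%, was 0% at a score of at least 7 and 0% at 10, where all pairs gave 33.7% and 34.6%. It was 80% when another end within 10 kb was accepted, where all pairs gave 68.5%. The share of Npas2 contacts at 1 timepoint only, 26.7%, was 10% (1 of 10) at a score of at least 7. It was 50% (3 of 6) at 10. All pairs gave 34.1% and 32.7% at these scores. For Arntl the share at 1 timepoint only, 33.3%, was 100% (1 of 1) at a score of at least 7. It was 0% (0 of 3) with the tolerance of 10 kb, where all pairs gave 11.5%. At a score of at least 10 no share could be given for Arntl, and at either stricter score none for Clock.

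Median distances measured as gaps were 33.4 kb for Arntl, 113 kb for Clock and 167 kb for Npas2, against 39.6, 120 and 172 kb between midpoints. At a score of at least 7 they were 50.6 kb for Arntl and 151 kb for Npas2. The share of baits with fewer contacts was 15.5% for Arntl and 63.4% for Npas2 among protein-coding baits, 21.1% for Arntl, 3.21% for Clock and 65.6% for Npas2 with contacts within 500 kb, and 74.6% for Npas2 at a score of at least 7. Numbers of contacts with an exon (4) or a gene start (4) did not change with protein-coding genes alone. In windows of 500 bases before to 100 after a gene start, 12.1% held the E-box, 1.95% the D-box, 5.1% the ROR/REV-ERB element and 3.26% the NR5A2 element, and 4.00% of the RefSeq windows held TAGGTCA or TAGGTTA, a search added after seeing the data.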
